A study of Sus scrofa with 21 samples.

Results

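Expression of 8 genes of cardiac calcium cycling and ion conduction (RYR2, ATP2A2, PLN, CASQ2, RRAD, KCNJ5, CALM3 and PDE3A) was examined in a porcine model of myocardial infarction (MI). They were found on the Affymetrix Porcine Genome array by the platform's gene symbol, and, where the platform gave no symbol, by the symbol in the study's supplementary tables. This gave 24 probe sets (groups of short probes that together measure a transcript) of the 24123 on the array, 22 named by the platform and 2 by the study's tables alone. Of the 22, 15 passed the filter on low values (log2 level above 3 in at least 10 of the 21 arrays) and were tested, and 7 did not pass. At least 1 probe set of each of the 8 genes was tested. The 2 probe sets named by the study's tables also passed the filter, but those tables list probe sets that the study called in these samples, so their values are a description with no test and enter no count.

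The infarcted animals were 9 female Landrace x Large White pigs. Their infarct was made by a double ligature on the first marginal branch of the left circumflex coronary artery. From each infarcted pig 1 array measured the infarct core (IC), from the middle of the left ventricular scar, and 1 measured the remote myocardium (RM), from the non-infarcted septum. Tissue was taken 1 week (day 6), 4 weeks (day 30) or 6 weeks (day 45) after surgery, with 3 pigs at each stage. Control myocardium (CM) came from 3 other pigs, whose sex and breed the study's text does not state. The sample labels call them sham-operated and the study's text calls them healthy. All 7 groups thus held 3 arrays, and every comparison with CM shared the same 3 control arrays. The stages are different animals, and each array is whole tissue, so a lower level of a transcript can reflect fewer cells of a type or less RNA per cell, which cannot be told apart here. Values are log2 levels after robust multi-array averaging (RMA), whose precision is limited by the number of arrays.

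In a heart muscle cell each beat begins with calcium entering through L-type channels, which opens ryanodine receptors on the sarcoplasmic reticulum (SR), the internal calcium store. Calcium is then pumped back into the store by SERCA2, a pump that phospholamban restrains until protein kinase A phosphorylates it. RYR2 encodes the cardiac ryanodine receptor, CASQ2 the calcium-binding protein inside the store, ATP2A2 the SERCA2 pump and PLN phospholamban. RRAD encodes Rad, a small GTP-binding protein that restrains L-type channels. KCNJ5 encodes a subunit (Kir3.4) of the potassium channel opened by acetylcholine, best known from atrial muscle and the sinus node. CALM3 is 1 of the genes that encode calmodulin, the calcium sensor that regulates RYR2 and L-type channels, and PDE3A encodes a phosphodiesterase that breaks down cyclic AMP near the SR.

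The regions differed in cell type markers as well. The mean log2 level of 14 cardiomyocyte markers was 11.7 to 11.8 in every CM and RM array and 10.1 to 11.5 in IC arrays. Over the 3 stages 11 of the 14 were lower in IC than in CM, with a median log2 fold change (FC) of -0.77, and ACTC1, MYH7 and MYL2 were not called. By stage 9, 11 and 4 of the 14 were lower at 1, 4 and 6 weeks (median log2 FC -0.86, -1.14 and -0.33), so the markers were nearest to CM at 6 weeks, and 1 was higher at 1 week. Of the fibroblast markers, 7 of 8 were higher in IC (median log2 FC 2.98), with array means of 5.74 to 6.80 in CM and 8.64 to 9.19 in IC. Both leukocyte markers tested, AIF1 and CD163, were higher. Of 5 smooth muscle markers 3 were higher and SMTN was lower, and of 4 endothelial markers CDH5 was lower and none higher. RNA quality controls moved too, and not in 1 direction. The actin 3′ minus 5′ control difference was 1.51 to 1.64 in CM, 1.69 to 1.92 and 1.34 to 1.69 in IC at 1 and 4 weeks, and 1.99 to 2.62 at 6 weeks, above every CM array. The Gapdh 3′ minus 5′ difference was 0.62 to 0.71 in CM. In IC it was 0.38 to 0.57, 0.06 to 0.41 and 0.36 to 0.51 at 1, 4 and 6 weeks, below every CM array. In RM the single marker called against CM was ACTA2, a smooth muscle actin (at 4 weeks and for the mean of the stages, where the log2 FC was 0.60, adjusted p = 0.0485). The part that these shifts play in the results below was not tested.

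Almost all of the calls for these genes were made in the infarct core. Against CM, 12 of the 15 probe sets were called in IC at 1 week (5 higher, 7 lower), 11 at 4 weeks (4 higher, 7 lower) and 10 at 6 weeks (3 higher, 7 lower), called meaning an adjusted p under 0.05 in limma's moderated test. Among all 12180 probe sets tested, 54.2%, 54.4% and 47% were called in the same comparisons, so much of the array changed in the core too. The counts are of probe sets, several of which share a gene. They include the second RYR2 probe set, which passed the filter through its CM and RM arrays, and Ssc.17712.1.S1_at, whose gene is uncertain. For the mean of the 3 stages, 5 of the 15 were higher and 8 lower, where 27.5% of all probe sets were higher and 31.8% lower. The median log2 FC of the members was -0.94, against -0.07 over all probe sets. Far fewer calls were made in RM against CM: 1 member, RRAD, was called at 1 week, 1 at 4 weeks and 0 at 6 weeks. Among all probe sets 1.13%, 1.08% and 0.197% were called. At 6 weeks 2 member probe sets had an unadjusted p under 0.05 in the limma test. KCNJ5 lay below every CM array in RM at 4 and 6 weeks without being called. RRAD was again the single member called for the mean of the RM stages (0.878% of all probe sets).

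Compared with RM of the same pigs, in a limma fit with the pig as a block, 11 of the 15 probe sets were called in IC at 1 week (4 higher, 7 lower), 13 at 4 weeks (4 higher, 9 lower) and 11 at 6 weeks (3 higher, 8 lower). The background was 52.6%, 54.7% and 47.7% of all probe sets. Over the 3 stages 4 probe sets were higher and 10 lower in IC than in RM, with 33% of all probe sets higher and 39.2% lower. The higher ones were Ssc.29181.1.A1_s_at and Ssc.22641.1.S1_at of ATP2A2, a gene with another probe set that was lower, and Ssc.17712.1.S1_at and Ssc.17712.2.S1_at of CALM3. The study's tables give Ssc.17712.1.S1_at another gene name. The probe set not called was the leading one of CALM3. Of each gene's probe sets, the leading one is that whose mean level across all arrays was greatest.

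**Figure D1:**
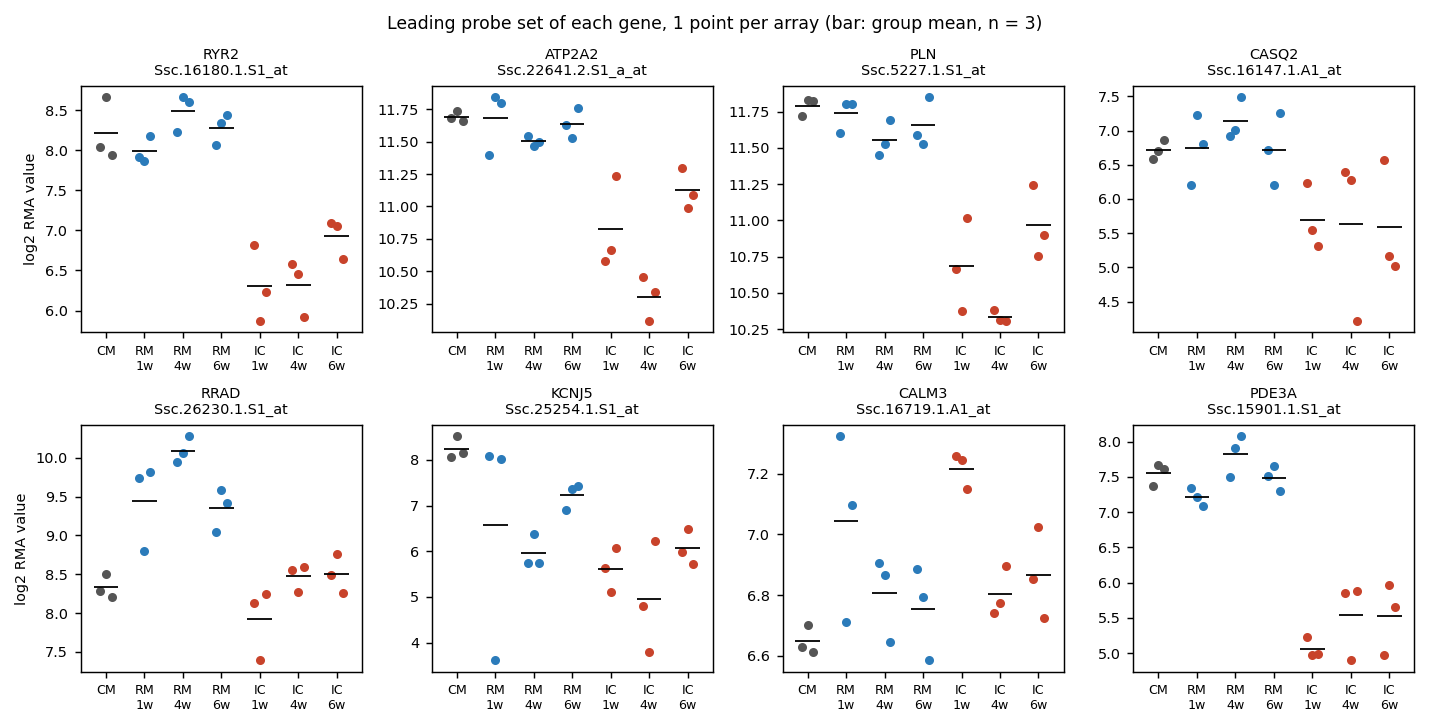
Log2 RMA level of the leading probe set of each gene in every array, for CM and for RM and IC at 1, 4 and 6 weeks; points are arrays and bars are means of 3 arrays. RYR2, ATP2A2, PLN, CASQ2, KCNJ5 and PDE3A were lower in all IC arrays than in all CM arrays, CASQ2 only narrowly. RRAD was higher in all RM arrays than in CM, and 1 of the RM arrays of KCNJ5 lay at 3.61.

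RYR2, the release channel of the SR, was lower in the scar at every stage by its leading probe set. A second tested one also read lower, but passed the filter through its CM and RM arrays. The leading one (Ssc.16180.1.S1_at) read 8.04, 8.66 and 7.94 in the CM arrays. In IC it read 6.81, 5.87 and 6.23 at 1 week, 6.58, 6.46 and 5.92 at 4 weeks, and 7.09, 7.05 and 6.64 at 6 weeks. In RM the 9 arrays lay between 7.87 and 8.66, which spans much of the CM range, while no IC array reached the lowest CM or RM array. The log2 FC of IC against CM was -1.91 at 1 week, -1.89 at 4 weeks and -1.28 at 6 weeks (SE 0.24, adjusted p = 3.82e-06, 3.99e-06 and 0.000372 in limma). Compared with RM it was lower in 9 of 9 pigs (differences of -2.68 to -0.975), and the mean log2 FC was -1.74 (SE 0.14, adjusted p = 1.41e-06).

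A second RYR2 probe set, Ssc.16180.2.S1_at, was lower in the core as well. It read 5.05, 5.78 and 4.75 in CM and between 1.89 and 3.33 in the 9 IC arrays, so the groups did not overlap. The log2 FC against CM was -2.85, -2.50 and -2.03 at 1, 4 and 6 weeks, with adjusted p of 1.19e-06, 4.87e-06 and 8.56e-05. It passed the filter through its CM and RM arrays: in IC all 3 arrays at 1 week and 2 of 3 at 4 weeks read below the filter level of 3, so the sizes of those differences rest on readings near the bottom of the scale. In RM it read 4.71, 4.56 and 4.28 at 1 week, below all CM arrays, and 4.88, 6.06 and 6.25 at 4 weeks, which overlapped them. Neither RM stage was called (log2 FC -0.68 and 0.53, adjusted p = 0.359 and 0.425).

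A RYR2 probe set named by the study's tables alone ran the other way. Ssc.25615.1.A1_at read 6.65, 6.59 and 6.62 in CM and 7.94 to 9.24 in IC, above every CM and RM array, and was higher in IC than in RM in 9 of 9 pigs, by 1.15 to 2.72. The remaining RYR2 probe set (Ssc.16180.2.A1_at) did not pass the filter, at 0.533 to 1.59 in the 21 arrays.

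CASQ2, the calcium store's binding protein, varied more between pigs. The tested probe set (Ssc.16147.1.A1_at) read 6.59, 6.71 and 6.86 in CM. In IC it read 6.24, 5.55 and 5.31 at 1 week, 6.39, 6.27 and 4.21 at 4 weeks, and 6.57, 5.16 and 5.02 at 6 weeks. Every IC array was thus below every CM array, though pig 2 at 6 weeks missed the lowest CM value only narrowly. No stage passed the test against CM (log2 FC -1.02, -1.09 and -1.14, adjusted p = 0.0864, 0.0671 and 0.0647). At 4 weeks the log2 FC was -0.39 without IC pig 22, and -1.48 and -1.42 without IC pig 18 or 20, which then passed (adjusted p = 0.0262 and 0.0346). At 6 weeks it was -1.63 without IC pig 2 and passed (adjusted p = 0.0125). The mean of the 3 stages did (log2 FC -1.08, SE 0.40, adjusted p = 0.0263), and so did the comparison with RM of the same pigs (log2 FC -1.23, SE 0.31, adjusted p = 0.00466), in which CASQ2 was lower in 8 of 9 pigs. The call against CM was lost without CM pig 30, 31 or 33 (adjusted p = 0.0525, 0.0689 and 0.0881). At 4 weeks the difference from RM (log2 FC -1.51, adjusted p = 0.0356) became -0.63 without pig 22, whose IC array held the lowest value (adjusted p = 0.308). RM overlapped CM at 1 and 6 weeks and lay above it at 4 weeks, at 6.92, 7.01 and 7.49 (log2 FC 0.42, adjusted p = 0.713). The other CASQ2 probe set did not pass the filter (1.56 to 2.31).

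ATP2A2, the SERCA2 pump that refills the store, fell in the core by its leading probe set. Ssc.22641.2.S1_a_at read 11.68, 11.74 and 11.66 in CM. In IC it read 10.58, 10.66 and 11.23 at 1 week, 10.46, 10.11 and 10.34 at 4 weeks, and 11.30, 10.99 and 11.09 at 6 weeks. All 9 IC arrays were below all CM arrays, with the 4-week arrays the lowest as a group. The log2 FC against CM was -0.87, -1.39 and -0.57 (SE 0.16, adjusted p = 0.000223, 1.51e-06 and 0.00858). After cyclic loess scaling the 6-week value was -0.32 and was no longer called (adjusted p = 0.138). RM stayed between 11.40 and 11.85, with no stage called (log2 FC -0.01, -0.19 and -0.05).

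The other two ATP2A2 probe sets that were tested rose where the leading one fell. Ssc.29181.1.A1_s_at, whose suffix marks probes that match more than 1 transcript, read 5.07, 4.75 and 4.93 in CM and 6.72, 6.54 and 6.90 in IC at 1 week. At 4 weeks it read 5.34, 5.84 and 5.79 and at 6 weeks 5.65, 5.38 and 5.79, still above every CM array. The log2 FC was 1.80, 0.74 and 0.69 (SE 0.19, adjusted p = 6.34e-07, 0.00356 and 0.00755). Ssc.22641.1.S1_at gave log2 FC of 1.51, 0.86 and 0.49, the last of which was not called (adjusted p = 0.0566). It read 4.50, 4.17 and 4.38 in CM, and 6.01, 5.41 and 6.16 in IC at 1 week, where the gap was widest. Since the probe sets disagree, an average over the 3 gives a rise at each stage in place of a fall, of 0.81, 0.071 and 0.20 against CM, so the direction reported for ATP2A2 rests on which probe set is read. A further ATP2A2 probe set did not pass the filter (1.08 to 3.03).

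PLN, the inhibitor of the pump, fell by both of its probe sets. Ssc.5227.1.S1_at read 11.72, 11.83 and 11.83 in CM. In IC it read 10.66, 10.38 and 11.02 at 1 week, 10.38, 10.32 and 10.30 at 4 weeks, and 11.24, 10.76 and 10.90 at 6 weeks. No IC array reached the lowest CM array. The log2 FC was -1.11 at 1 week and -1.46 at 4 weeks (SE 0.16, adjusted p = 1.27e-05 and 5.87e-07), and the 6-week value was also called (adjusted p = 0.000394). Ssc.5227.1.S2_at gave -1.36, -1.96 and -1.39 (adjusted p = 5.03e-06, 8.21e-08 and 8.42e-06). Both probe sets were lower in IC than in RM in 9 of 9 pigs, with mean differences of -0.987 and -1.33. The RM arrays of the leading probe set lay between 11.45 and 11.85, and at 4 weeks (11.45, 11.53 and 11.69) all were below CM, a difference that did not pass the test (log2 FC -0.24, adjusted p = 0.472).

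**Figure D2:**
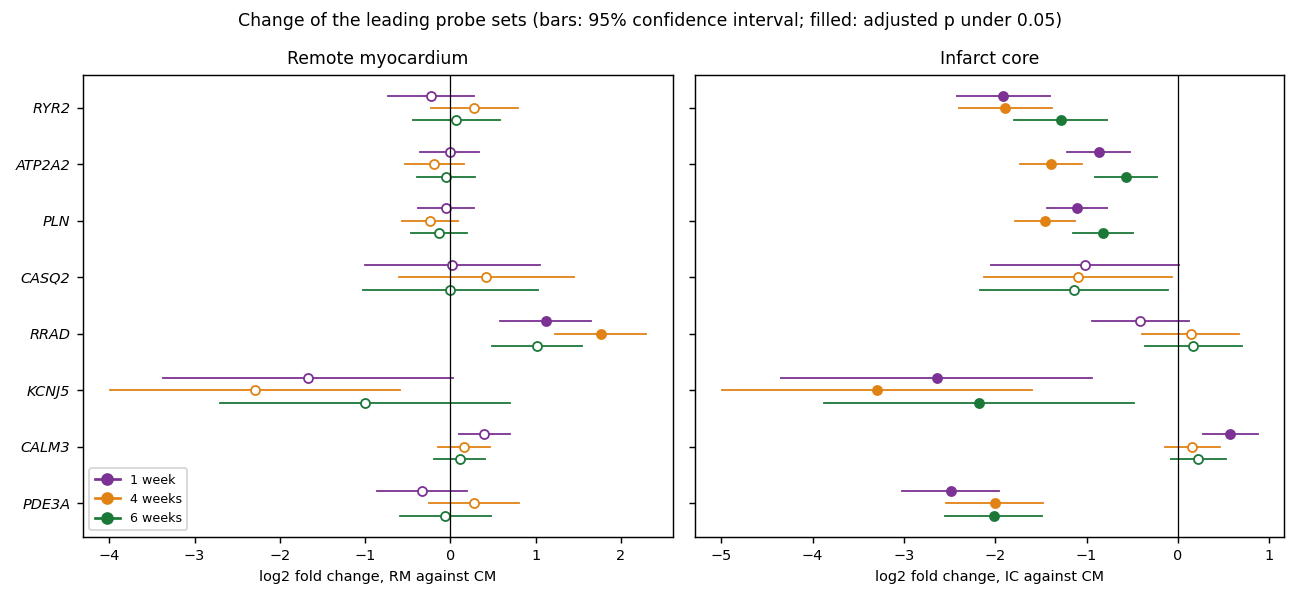
Log2 FC against CM of the leading probe set of each gene at 1, 4 and 6 weeks, for RM (left) and IC (right, with a different horizontal range); lines are 95% confidence intervals and filled points passed the test. RRAD at 1 and 4 weeks is the single filled gene in RM, while RYR2, ATP2A2, PLN, KCNJ5 and PDE3A are filled at all stages in IC.

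RRAD, the brake on L-type channels, was the member that rose in the remote myocardium and not in the core. Ssc.26230.1.S1_at read 8.28, 8.51 and 8.21 in CM. In RM it read 9.73, 8.80 and 9.82 at 1 week, 9.94, 10.06 and 10.28 at 4 weeks, and 9.04, 9.59 and 9.42 at 6 weeks. All 9 RM arrays were above all CM arrays, pig 8 at 1 week being the nearest. The log2 FC was 1.12 at 1 week (SE 0.25, adjusted p = 0.0402), 1.76 at 4 weeks (adjusted p = 0.00475) and 1.02 at 6 weeks, which was not called (adjusted p = 0.104). Over the 3 stages it was 1.30 (SE 0.21, adjusted p = 0.00704). The 1-week call was lost without CM pig 30, 31 or 33 (log2 FC 1.09, 1.20 and 1.05) and without RM pig 7 or 9 (0.97 and 0.93), with adjusted p of 0.0962 to 0.168. The calls at 4 weeks and for the mean of the stages held under every setting tried.

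In the core RRAD stayed near the control level. It read 8.13, 7.39 and 8.24 at 1 week, 8.56, 8.27 and 8.59 at 4 weeks, and 8.49, 8.75 and 8.25 at 6 weeks, and each stage overlapped CM. The log2 FC was -0.41, 0.14 and 0.17 (adjusted p = 0.178, 0.665 and 0.61). Within each pig the core lay below the remote myocardium, in 9 of 9 animals, with differences of -1.80 to -0.548 (mean log2 FC -1.33, SE 0.08, adjusted p = 3.31e-07). By stage that difference was -1.53, -1.62 and -0.85, all called. The array controls also differed between the groups at the stage where RRAD was highest: RM arrays at 4 weeks had poly-A spike-in levels of 4.95 to 5.08 against 4.45 to 4.88 in CM, and an actin 3′ minus 5′ difference of 1.04 to 1.07 against 1.51 to 1.64. At 6 weeks these were 4.71 to 4.82 and 1.53 to 1.63, within the CM range. Other controls lay outside it: hybridization spike-in levels were 8.61 to 8.72 in RM at 6 weeks against 8.39 to 8.54 in CM. The Gapdh 3′ minus 5′ difference was 0.33 to 0.55 and 0.38 to 0.53 in RM at 4 and 6 weeks against 0.62 to 0.71 in CM. RRAD was above CM at 6 weeks without being called. The part of these controls in the RRAD values was not tested.

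**Figure D3:**
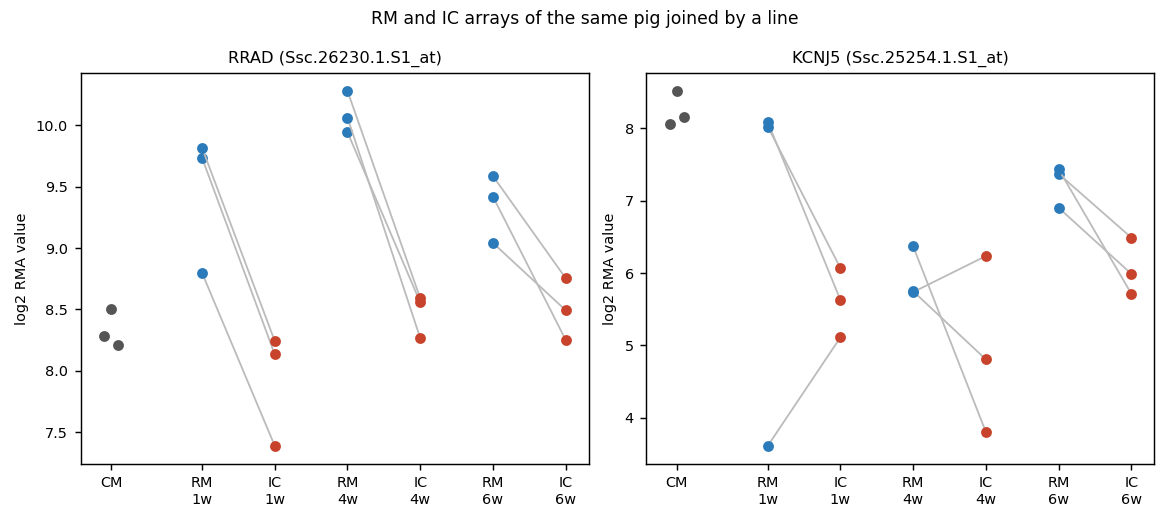
Log2 RMA levels of RRAD and KCNJ5 in CM (3 arrays) and in RM and IC of the same pig, joined by a line, at 1, 4 and 6 weeks. Every RRAD line falls from RM to IC, whereas 2 of the 9 KCNJ5 lines rise, the steeper being pig 8 at 1 week.

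KCNJ5, the Kir3.4 potassium channel subunit, was lower in the core and varied widely between arrays of a group. Ssc.25254.1.S1_at read 8.06, 8.52 and 8.16 in CM. In IC it read 5.63, 5.11 and 6.07 at 1 week, 4.81, 3.80 and 6.24 at 4 weeks, and 5.99, 6.49 and 5.71 at 6 weeks. All IC arrays lay more than 1 log2 unit below the lowest CM array. The log2 FC was -2.64, -3.29 and -2.18 (SE 0.81, adjusted p = 0.0106, 0.00227 and 0.0345). The 6-week call was lost without CM pig 30, 31 or 33 or IC pig 2 or 5 (log2 FC -2.27 to -2.003, adjusted p = 0.0588 to 0.101).

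The remote myocardium was split for this gene. RM read 8.09, 3.61 and 8.03 at 1 week, so that pigs 7 and 9 lay close to CM and pig 8 far below it. At 4 weeks it read 5.75, 6.37 and 5.74 and at 6 weeks 6.90, 7.37 and 7.44, below every CM array. No RM stage was called (log2 FC -1.67, -2.29 and -1.01, adjusted p = 0.366, 0.163 and 0.651), nor was the mean of the stages (-1.65, adjusted p = 0.263). Without pig 8 the 1-week value was -0.19. Fitting only the RM 4-week and CM arrays, which leaves the spread of the other groups out, gave an adjusted p of 0.0244 for the 4-week difference. IC was below RM in 7 of 9 pigs (log2 FC -1.05, SE 0.40, adjusted p = 0.0357). That call was lost when any of pigs 2, 3, 5, 7, 9, 18 or 20 was left out (log2 FC -1.10 to -0.79, adjusted p = 0.0522 to 0.103), and at 1 week the difference was -0.97 with pig 8 and -2.21 without it (adjusted p = 0.26 and 0.012). The second KCNJ5 probe set did not pass the filter (1.50 to 2.49).

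CALM3, a calmodulin gene, was covered by 6 probe sets, of which 4 were tested. The leading one, Ssc.16719.1.A1_at, read 6.63, 6.70 and 6.61 in CM and 7.26, 7.25 and 7.15 in IC at 1 week (log2 FC 0.57, SE 0.14, adjusted p = 0.00265). At 4 and 6 weeks the IC arrays lay between 6.72 and 7.03, still above every CM array, but the log2 FC of 0.16 and 0.22 did not pass the test (adjusted p = 0.369 and 0.216). In RM it read 7.32, 6.71 and 7.10 at 1 week (log2 FC 0.40, adjusted p = 0.199). IC and RM of the same pigs did not separate, IC being higher in 5 of 9 pigs (log2 FC 0.10, 95% confidence interval -0.10 to 0.29). The call for the mean of the IC stages (log2 FC 0.32, adjusted p = 0.0267) was lost when arrays were centred on their medians (0.22, adjusted p = 0.123) and without CM pig 30, 31 or 33 (0.31, 0.34 and 0.30, adjusted p = 0.0758, 0.0523 and 0.0868).

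The other CALM3 probe sets did not move as one. Ssc.17712.1.S1_at, which the study's tables name JARID1B and the platform CALM3, read 4.97, 4.86 and 4.89 in CM and 5.52 to 6.00 in IC (log2 FC 0.85, 0.82 and 0.87, all called). The gene it measures is thus uncertain. The same doubt may apply to Ssc.17712.2.S1_at, whose name shares its number. That probe set read 4.78, 4.68 and 4.53 in CM and 5.20 to 5.74 in IC, and was called at all stages as well (0.80, 0.77 and 0.57). Both rose in IC over RM in 9 of 9 pigs. Ssc.3675.1.A1_at read 4.95, 5.20 and 5.13 in CM and overlapped it in IC (log2 FC -0.34, -0.18 and -0.15, none called), while in RM it read 5.62, 5.68 and 5.78 at 4 weeks and 5.76, 5.70 and 5.49 at 6 weeks. These RM arrays lay above all CM arrays without passing the test (log2 FC 0.60 and 0.56, adjusted p = 0.14 and 0.252). For this probe set IC was below RM in 8 of 9 pigs (log2 FC -0.60, SE 0.11, adjusted p = 0.00065). The 2 probe sets that did not pass the filter lay at 2.32 to 3.45 and 1.75 to 2.85.

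PDE3A, the cyclic AMP phosphodiesterase, fell in the core at every stage by its tested probe set. Ssc.15901.1.S1_at read 7.37, 7.67 and 7.61 in CM. In IC it read 5.22, 4.97 and 4.99 at 1 week, 5.85, 4.90 and 5.89 at 4 weeks, and 4.97, 5.97 and 5.65 at 6 weeks. The highest IC array lay more than 1 log2 unit below the lowest CM array. The log2 FC was -2.49, -2.01 and -2.02 (SE 0.25, adjusted p = 3.12e-07, 3.22e-06 and 7.43e-06), and against RM it was lower in 9 of 9 pigs, with differences of -3.00 to -1.65. RM read 7.34, 7.21 and 7.09 at 1 week, all just below CM, and overlapped CM afterwards, with no stage called (log2 FC -0.34, 0.27 and -0.06). The probe set named PDE3A by the study's tables alone, Ssc.9762.1.A1_at, ran the other way: it read 3.52, 3.58 and 3.28 in CM and 4.27 to 5.28 in IC, and was higher in IC than in RM in 9 of 9 pigs. A further PDE3A probe set did not pass the filter (0.996 to 1.76).

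Probe sets of the same gene were compared directly by the change from RM to IC within each pig, which cancels each probe set's own level. Of 11 pairs among the tested probe sets, 10 differed in an exact two-sided sign-flip permutation test over 9 pigs (adjusted p = 0.00537 or 0.00859), for which 0.00391 is the smallest p before adjustment. Probe set pairs of other genes were not compared, so this count is not read as a trait of these genes. The 2 RYR2 probe sets fell together (Pearson r over the 21 arrays 0.968), with a difference of 0.635, for which the second probe set's IC readings lie partly below the filter level. The 2 of PLN also ran together (r = 0.976) with a difference of 0.338. In ATP2A2 the change of the leading probe set differed from those of the other two by -1.84 and -1.69, with r of -0.584 and -0.652, while the rising probe sets followed each other (r = 0.951) and differed by 0.146. In CALM3 the single pair that did not differ was Ssc.17712.1.S1_at and Ssc.17712.2.S1_at (difference 0.00857, exact permutation p = 0.871, r = 0.898), and r of the other 5 pairs ran from -0.556 to 0.447. These correlations describe arrays that share regions and animals and carry no test.

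**Figure D4:**
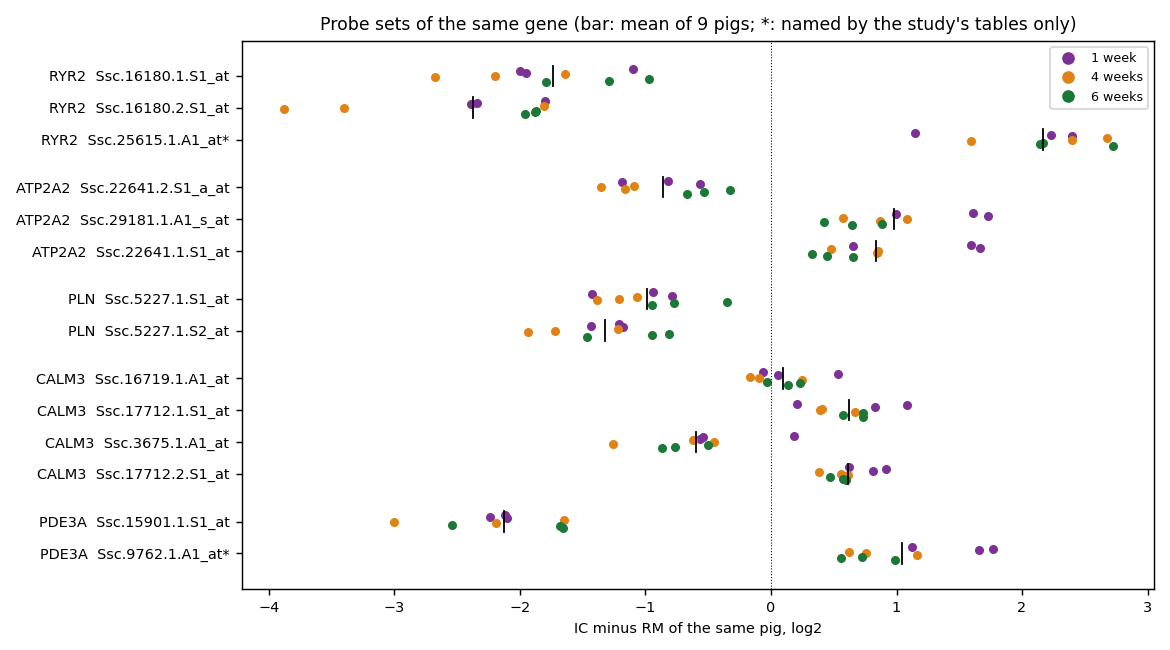
IC minus RM on the log2 scale in each of 9 pigs for the probe sets of RYR2, ATP2A2, PLN, CALM3 and PDE3A; an asterisk marks those named by the study's tables alone. Probe sets of RYR2, ATP2A2, CALM3 and PDE3A lie on both sides of 0, and those of PLN all lie below it.

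Because cardiomyocyte markers fell in the core, each change from RM to IC was also set beside the median change of the 14 cardiomyocyte markers in the same pig, which was -0.855 on average (SD 0.364, n = 9). The markers themselves differed widely, from -0.10 for ACTC1 to -1.50 for MYOM1 (log2 FC of IC against RM over the 3 stages), so a difference from their median describes the size of a change and is no test of the number of cardiomyocytes. Of the member probe sets, both of RYR2 (-1.74 and -2.37) and the tested one of PDE3A (-2.13) lay below all 14 markers, and those of PLN and RRAD lay within their range. The second RYR2 probe set (-2.37) passed the filter through its CM and RM arrays. Its IC readings lie partly below the filter level, which limits the size and the test of its difference. Of the 15 probe sets, 6 lay below the marker median: both of RYR2 (differences of -0.881 and -1.52), both of PLN (-0.133 and -0.471), RRAD (-0.479) and PDE3A (-1.27). All but the leading PLN probe set did so in 9 of 9 pigs (adjusted p = 0.00586 in the exact permutation test), and that one in 7 of 9 (adjusted p = 0.0479, or 0.0906 beside the mean of the markers). For RRAD the difference takes in its rise in RM, where its log2 FC against CM over the 3 stages was 1.30. In IC its log2 FC against CM was -0.04, which was not called, and the marker median was -0.77. Against CM, RRAD thus did not lie below the marker median, a comparison that was not tested. Another 5 probe sets lay above the median marker change from RM to IC. They were both rising probe sets of ATP2A2, by 1.83 and 1.69, and 3 that the platform names CALM3. These were the leading one (0.950), Ssc.17712.1.S1_at, which the study's tables name JARID1B (1.48), and Ssc.17712.2.S1_at (1.47). The leading ATP2A2 probe set changed by nearly the same amount as the markers (difference -0.00281, SD 0.233, p = 0.973 in the exact test). CASQ2 (-0.376), KCNJ5 (-0.195) and the CALM3 probe set Ssc.3675.1.A1_at (0.255) did not pass (adjusted p = 0.275, 0.758 and 0.107), with SDs over the pigs of 0.843, 1.57 and 0.385.

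**Figure D5:**
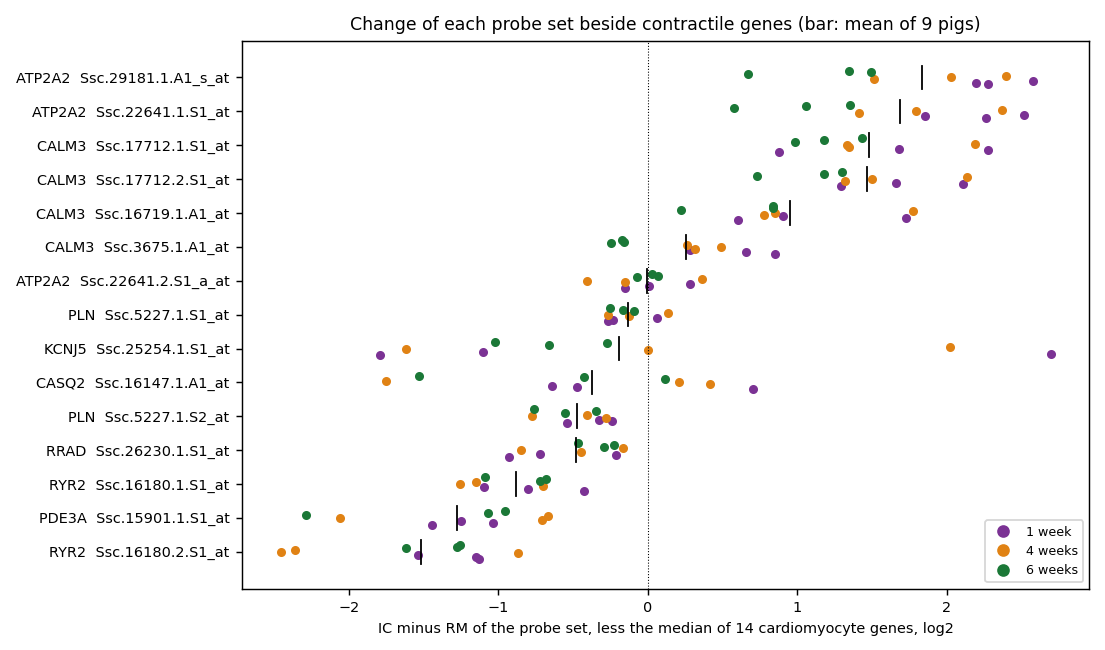
Change from RM to IC of each of the 15 tested probe sets, less the median change of 14 cardiomyocyte marker genes in the same pig (log2 scale); points are 9 pigs and bars are means. RYR2 and PDE3A lie below 0 in all pigs, the leading ATP2A2 probe set straddles 0, and 3 probe sets that the platform names CALM3 lie above it.

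Stages were compared within each region. In IC, 4 member probe sets were called lower at 4 weeks than at 1 week and 2 lower at 6 weeks than at 1 week. At 6 weeks 2 were higher than at 4 weeks. Among all probe sets 11.9%, 15.7% and 3.88% were called in these comparisons. The members called were probe sets of ATP2A2 and PLN alone. In RM 0 of 15 were called in any pair of stages (4 against 1 week, 6 against 1 week, 6 against 4 weeks), where 1.59%, 0.181% and 0.632% of all probe sets were, and the numbers with an unadjusted p under 0.05 in limma were 6, 1 and 1. The difference between IC and RM was not shown to vary by stage for any member: 0 of 15 passed the interaction test in limma for 4 against 1 week, 6 against 1 week or 6 against 4 weeks (0.0657%, 0.32% and 0% of all probe sets), with 1, 3 and 6 at an unadjusted p under 0.05.

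Other genes of these pathways, from lists of which each gene is read by its probe set with the highest mean, were compared in the same way. In RM 1 of 42 was called at 4 weeks in limma, and 0 at 1 week, 6 weeks or for the mean of the stages (7, 8 and 6 at an unadjusted p under 0.05), beside an RM background of 0.197% to 1.13% of all probe sets, which leaves few calls for any list of this size. Of 9 other SR genes tested, 3 were higher and 4 lower in IC than in CM over the 3 stages (median log2 FC -0.04). HRC, a calcium-binding protein of the SR lumen (log2 FC -1.41), TMEM38A, a cation channel of the SR (-1.28), and S100A1, a regulator of calcium release (-1.22), fell. FKBP1B, which binds RYR2, rose (1.35). Of 4 tested genes of calcium transport across the cell membrane, SLC8A1, the sodium-calcium exchanger, and CACNA2D1, an L-type channel subunit, were lower (log2 FC -1.55 and -1.14). GEM, a relative of RRAD, and ATP2B1, a calcium pump, were higher (1.76 and 0.93).

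Signalling genes leaned lower. Of 7 genes of calmodulin signalling 1 was higher and 4 lower (median log2 FC -0.72), among them the kinase subunits CAMK2B (-1.91), CAMK2D (-1.38) and CAMK2G (-0.79), while PPP3CA, the catalytic subunit of calcineurin, was higher (1.07). Of 12 genes of cyclic nucleotide signalling 1 was higher and 9 lower (median -0.81), led by PPP1R1A, an inhibitor of protein phosphatase 1 (-2.26), the protein kinase A subunits PRKAR2A (-2.23) and PRKACB (-1.35), and the phosphodiesterase PDE4B (-2.04). The gene called in RM was PPP1CA, the catalytic subunit of protein phosphatase 1, at 4 weeks (log2 FC 0.64, SE 0.12, adjusted p = 0.0149). Of 6 potassium channel genes 5 were lower (median -0.98), including KCNIP2 (-1.78), KCNJ8 (-1.16), KCNE1 (-1.15) and KCNQ1 (-0.82). Of 4 sodium pump and gap junction genes 2 were higher, ATP1B3 (1.28) and GJA5 (0.97), and 2 lower, ATP1B1 and GJA1 (both -0.53). The median over all 12180 probe sets was -0.07, and the background shares are those given above for the mean of the IC stages. The genes named here from IC had adjusted p of 1.52e-09 to 0.016 in limma.

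The genes whose levels ran most like each member over the 21 arrays were found among 6242 probe sets with 1 gene symbol. They were BUD23, ETFB and YBX1 for RYR2 (Pearson r 0.971 to 0.973), PFKM, ATPAF1 and GOT1 for ATP2A2 (0.953 to 0.962), and ATPAF1, COQ9 and CYB5R1 for PLN (0.972 to 0.974). SLC41A1, TCEA3 and YBEY ran most like PDE3A (0.963 to 0.968), and OPTN, CAP2 and MTCH2 most like CASQ2 (0.912 to 0.956). Likeness was weaker for RRAD, with PKIG, SORBS2 and KARS at 0.834 to 0.864, for CALM3, with EIF3B, TBC1D10B and RBBP6 at 0.788 to 0.797, and for KCNJ5, with C17H8orf4, RALY and UBXN6 at 0.752 to 0.782. Between members the highest r was that of ATP2A2 and PLN (0.969), the pump and its inhibitor, followed by RYR2 and PDE3A (0.918), and the lowest was that of CALM3 and PDE3A (-0.415). The arrays share regions and animals, and no test was made of these values.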

How the data were processed

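The authors hybridised biotin-labelled RNA (200 ng, 3′ IVT Express kit) to Affymetrix Porcine arrays and deposited log2 RMA values of 24123 probe sets in 21 arrays. A probe set was tested if its log2 level was above 3 in at least 10 arrays (12180 passed). limma 3.58.1 in R 4.3.3 fitted 7 group means to these values, with Benjamini-Hochberg adjustment over all probe sets tested in each comparison and a threshold of 0.05. IC and RM were compared with the pig as a fixed block (18 arrays), since the labels give both samples the pig's number; deviations from the group means correlated at 0.0714 to 0.491 between IC and RM of the same animal. Exact sign-flip tests (Python 3.11.15, NumPy 2.4.6) used all 512 flips over 9 pigs. Scripts were tested on simulated data. The members, gene lists and marker lists were chosen with earlier results of these data known. The text names every member probe set, up to 4 called genes of each list with the largest log2 FC in IC over the 3 stages, every list gene called in RM, and the 3 genes most like each member. Platform symbols of the 8 members equalled the RefSeq symbols of their gene IDs. Alternatives were other filters, scalings, arrays, blocks and probe-set choices, and leaving out each array or pig.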

Additional observations from a re-analysis of the deposited data

Results flagged for a closer look

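Within IC, 8 differences between stages passed the limma test for probe sets of ATP2A2 and PLN. For the leading ATP2A2 probe set (Ssc.22641.2.S1_a_at) the log2 FC was -0.52 at 4 weeks against 1 week (adjusted p = 0.0451) and 0.82 at 6 weeks against 4 weeks (adjusted p = 0.00961), so that the level was lowest at 4 weeks. Both rising ATP2A2 probe sets were highest at 1 week: Ssc.29181.1.A1_s_at changed by -1.06 at 4 weeks and -1.11 at 6 weeks against 1 week (adjusted p = 0.00287 and 0.00173), and Ssc.22641.1.S1_at by -0.65 and -1.02 (adjusted p = 0.0452 and 0.00349). For PLN, Ssc.5227.1.S1_at was 0.63 higher at 6 weeks than at 4 weeks (adjusted p = 0.031) and Ssc.5227.1.S2_at changed by -0.60 from 1 to 4 weeks (adjusted p = 0.0349). The mean level of 14 cardiomyocyte markers was 10.9, 10.6 and 11.3 in IC at 1, 4 and 6 weeks, and that of 12 poly-A spike-in controls 4.13, 5.58 and 5.28. The actin 3′ minus 5′ difference was 1.80, 1.51 and 2.35, and that of Gapdh 0.49, 0.21 and 0.43. The part of these measures in the differences between stages was not tested. Several of these calls were lost when 1 array was left out, some of them with a log2 FC at least as large. Without 1 array in turn, the 4-week against 1-week call of the leading ATP2A2 probe set was lost for IC pigs 18, 20, 22 and 9 (log2 FC -0.60, -0.43, -0.54 and -0.32), and its 6-week against 4-week call without pig 2 (0.74, adjusted p = 0.0553). That of Ssc.22641.1.S1_at at 4 weeks was lost without pig 18, 20, 9 or 7 (-0.54, -0.63, -0.50 and -0.58), that of Ssc.5227.1.S1_at without pig 18, 22, 20 or 2 (0.66, 0.62, 0.62 and 0.49), and that of Ssc.5227.1.S2_at without pig 22, 20, 9 or 7 (-0.52, -0.59, -0.46 and -0.63). Both calls of Ssc.29181.1.A1_s_at and the 6-week call of Ssc.22641.1.S1_at held without any 1 array.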

How the results depend on the processing

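The counts in this section are given without the share of all probe sets called under each setting. A changed count is therefore not read as a change in these genes. With only the arrays of the groups compared, the member probe sets called were 0 for RM at 1 week and 2 for RM at 4 weeks. In IC they were 1 for 4 weeks against 1 week and 0 for 6 weeks against 4 weeks. With no filter they were 0 for RM at 1 week and 2 for IC at 4 weeks against 1 week, and after cyclic loess 1 for IC at 6 weeks against 4 weeks. Leaving out each array in turn gave 0 to 1 for RM at 1 week, 1 to 4, 2 to 4 and 0 to 2 for the IC stage comparisons (4 against 1, 6 against 1 and 6 against 4 weeks) and 0 to 1 for RM at 4 weeks against 1 week. Leaving out each pig gave 7 to 11 for IC against RM at 6 weeks, with 7 without pig 5, and 10 to 12 at 4 weeks against 13 with all pigs; IC against CM at 6 weeks gave 9 to 11. By stage, calls of IC against RM were lost for CALM3 Ssc.17712.1.S1_at at 4 weeks without pig 18, 20 or 22 (0.53, 0.54 and 0.40), for CALM3 Ssc.3675.1.A1_at at 4 weeks without pig 22 (-0.54) and at 6 weeks without pig 3 or 5 (-0.69 and -0.63), for ATP2A2 at 6 weeks without pig 3 or 5 (leading probe set -0.50 and -0.43, Ssc.29181.1.A1_s_at 0.53 and 0.65) and, by Ssc.22641.1.S1_at, at 4 weeks without pig 20 (0.66), and for PLN Ssc.5227.1.S1_at at 6 weeks without pig 5 (-0.56). The mean of the gene's probe sets turned ATP2A2 to 0.81, 0.071, 0.20 and 0.36 for IC against CM (1, 4, 6 weeks and 3 stages) and to 0.63, 0.12, 0.20 and 0.32 against RM, since probe sets that rose enter that mean. Values that were not called and crossed 0 were CASQ2 in RM at 6 weeks (0.041 after cyclic loess, -0.27 to 0.26 leaving out arrays) and at 1 week (-0.22 to 0.29), and RRAD in IC over the 3 stages (0.20 after cyclic loess, -0.10 to 0.053 leaving out arrays); the cause was not tested. Without the replicate block, KCNJ5 in IC against RM over the 3 stages was no longer called (log2 FC -1.05, adjusted p = 0.0684), and no other call changed; the pig as a random block in the comparisons with CM changed none. With 3 arrays a group, single stages of CASQ2 and KCNJ5, whose SEs were 0.49 and 0.81, have the least precision.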
